A study of Mus musculus with 24 samples.

Results

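A set of 9 transcription and signalling factors of naive pluripotency were followed in mouse embryonic stem cells (ESCs) that lose Polycomb repressive complex 1 (PRC1) or its catalytic activity. They are the Krüppel-like factors *Klf2*, *Klf4* and *Klf5*, the nuclear receptors *Esrrb* and *Nr0b1*, the transcription factors *Tfcp2l1* and *Zfp42*, and *Dppa3* and *Tcl1*. Members were taken by gene symbol, with the transcript of the largest summed signal where a symbol had several, and 8 of the 9 had a transcript among the 20633 of the deposited table. *Dppa3* was not analysed here. All 8 passed the filter of at least 10 reads in at least 3 libraries, as did 16940 transcripts in all.

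Total RNA was measured by calibrated RNA sequencing (cRNA-seq) in 2 lines of E14 ESCs grown on gelatin in serum with leukemia inhibitory factor (LIF). The PRC1CKO line (clone B9) was Ring1a-/- with Ring1bfl/fl, and the PRC1CPM line (clone 41) was Ring1aI50A/D53K with an allele of Ring1b that Cre converts, written Ring1b(WT->I53A/D56K)fl/fl. Both lines, and so the untreated controls, also held Rosa26::ERT2-Cre. Untreated cells of each line were compared with cells kept for 72 h in 4-hydroxytamoxifen (OHT, 800 nM), which switches on the Cre recombinase expressed from *Rosa26*, with 3 replicates in each of the 4 conditions. All 12 libraries held *Drosophila* SG4 cells added at a fixed ratio to the ESCs. Thus OHT removes RING1B from PRC1CKO cells that have no RING1A at any time, and turns RING1B into the I53A/D56K form in PRC1CPM cells whose RING1A is the inactive I50A/D53K form before and after treatment. Each line is 1 clone, so line and clone cannot be told apart. The methods of the study speak of biological replicates, but the labels do not say whether they came from separate cultures, so the p-values measure the spread between these libraries. Reads on genes numbered from 14668159 to 27016156 in a library. The values are normalised read counts, that is, reads over the whole gene body divided by a spike-in size factor for each library. *Rnf2*, which encodes RING1B, had 1526 ± 201 normalised read counts (SD, n = 3) in untreated and 1546 ± 50.8 in OHT-treated PRC1CKO cells, and *Ring1*, which encodes RING1A, had 227 ± 76.3 and 254 ± 26.4. Reads over a gene body also cover the parts of a gene that recombination leaves in place, so these values do not check the removal of either protein. The ESC markers had high signal, since *Sox2* had 7151 ± 1485 and *Pou5f1* 4734 ± 1365 normalised read counts in untreated PRC1CKO cells. Of the fibroblast genes listed, *Col1a1* had the most signal, 2123 ± 1357. *Col1a2*, *Col3a1*, *Thy1* and *Pdgfrb* had means between 206 and 595. *Postn* had 18.3 ± 17.7, *Dcn* 5.61 ± 5.54 and *Lum* 0, and the last 2 did not pass the filter.

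Naive pluripotency is the state of the preimplantation epiblast, which ESCs keep in culture when LIF activates STAT3 and when the repressor TCF3 is held in check. Downstream of these signals, KLF4 and TFCP2L1 act mainly on the side of STAT3, ESRRB is repressed by TCF3, and KLF2 is controlled by MAP kinase signalling. The factors bind each other's genes and those of OCT4, SOX2 and NANOG, and most are lost quickly when cells move to the formative and primed states, while PRC1 represses genes of later lineages by ubiquitylating histone H2A.

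The upstream sequences of 3 members are shown because 2 of them were called lower after OHT treatment in both lines and the other differed between the untreated lines. Each is the 250 bases before the annotated start, 5′ to 3′ on the strand of the gene, from RefSeq on GRCm38.p6. Capitals mark the word GGGNGTG of KLF proteins on either strand.
Klf2, chr8:72318812-72319061, plus strand: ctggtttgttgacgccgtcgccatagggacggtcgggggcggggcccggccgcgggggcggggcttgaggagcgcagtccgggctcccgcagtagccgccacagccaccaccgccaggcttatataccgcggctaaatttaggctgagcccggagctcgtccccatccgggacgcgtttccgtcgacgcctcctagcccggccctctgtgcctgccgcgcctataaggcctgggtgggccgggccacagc
Nr0b1, chrX:86191525-86191774, plus strand: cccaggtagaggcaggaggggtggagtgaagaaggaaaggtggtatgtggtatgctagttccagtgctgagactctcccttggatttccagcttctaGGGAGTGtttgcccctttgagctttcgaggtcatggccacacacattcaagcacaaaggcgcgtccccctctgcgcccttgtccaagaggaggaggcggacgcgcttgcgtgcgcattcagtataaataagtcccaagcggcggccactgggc
Tfcp2l1, chr1:118627695-118627944, plus strand: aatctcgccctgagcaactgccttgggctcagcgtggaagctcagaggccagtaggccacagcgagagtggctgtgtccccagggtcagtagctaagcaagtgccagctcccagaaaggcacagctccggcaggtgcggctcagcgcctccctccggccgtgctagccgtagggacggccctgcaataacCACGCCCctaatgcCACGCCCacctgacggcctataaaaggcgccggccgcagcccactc

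Words were counted in windows of 250 bases before to 50 after the start, which were found for 7 of the members. *Klf5* had no window. The *Klf2* window held 32 CpG dinucleotides and 69.3% G and C, and none of the 5 words searched. The *Nr0b1* window held 14 CpG dinucleotides, 58.7% G and C and 1 KLF word, and that of *Tfcp2l1* held 21, 65.3% and 2 KLF words, which start 60 and 46 bases before the start. Among all 32851 windows the median was 7 CpG dinucleotides and 52.7% G and C. The KLF word lay in 29.2% of all windows, and in that of *Zfp42* as well. *Esrrb* had a window at the start of the transcript used here, which held the word, and another at a later start, which did not. The word AAGGTCA of oestrogen-related receptors (4.72% of all windows) and the STAT word TTCCNGGAA (1.15%) lay in no window of a member, the octamer part TGCAAAT (4.02%) lay in that of *Zfp42*, and the E-box CACGTG (7.15%) in that of *Klf4*, which had 40 CpG dinucleotides. The words were searched on both strands, do not overlap in the members' windows, and are matches of letters only.

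To find out how strongly the members were expressed, normalised read counts were divided by the length of the gene body. In untreated PRC1CKO cells *Klf4* (1205 ± 218 per kb, SD, n = 3), *Klf2* (971 ± 260.2) and *Zfp42* (899.9 ± 119.6) had the highest levels per kb of gene body, and they do not differ beyond their spread. *Tfcp2l1* (217 ± 25.8) and *Klf5* (209 ± 39.9) followed with overlapping spreads. *Nr0b1* (139.8 ± 29.7) and *Tcl1* (110.3 ± 22.1) also overlapped, and *Esrrb* (72.3 ± 7.06) was lowest. The order depends on the length used, because exons make up between 2.68% (*Esrrb*) and 70.0% (*Klf2*) of the gene body. Per kb of exon *Zfp42* was highest (5967 ± 793) and *Esrrb* ranked next (2698 ± 264), while *Nr0b1* was lowest (325 ± 69.1). A shorter transcript of *Esrrb* gave 116 normalised read counts per kb of gene body in these cells, near the value of *Tcl1*. The last place of *Esrrb* per kb of gene body therefore depends on the transcript used. Summed over the gene body the shorter transcript had 11578 and the longer 11603 normalised read counts.

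**Figure D1:**
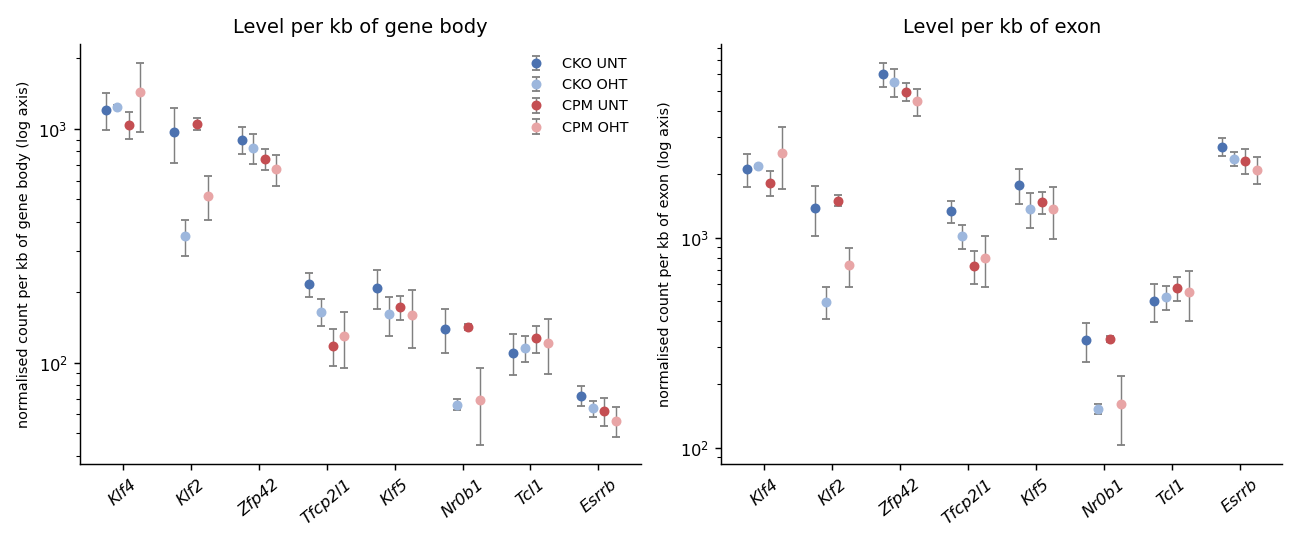
Level of the 8 members in the 4 conditions, as mean and SD of 3 libraries, in normalised read counts per kb of gene body (left) and per kb of exon (right), both on a log axis (CKO, PRC1CKO; CPM, PRC1CPM; UNT, untreated). *Klf2* and *Nr0b1* sit lower in both OHT conditions, and *Esrrb* moves from last place per kb of gene body to the second place per kb of exon in untreated PRC1CKO cells.

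The effect of losing PRC1 was examined first. After OHT treatment of PRC1CKO cells *Klf2* and *Nr0b1* were called lower, where a call needed more than a 1.5-fold change and a limma p under 0.05 after adjustment, and the other 6 members passed in neither direction by limma, DESeq2 or edgeR, nor at an unadjusted p under 0.05. Across all transcripts tested, 3.09% (524) were called lower and 16.5% (2787) higher. Leaving out untreated replicate 1 or OHT-treated replicate 2 of PRC1CKO gave 326 and 329 transcripts called lower. *Klf2* and *Nr0b1* stayed lower in each of 23 alternative analyses. The median log2 difference of the 8 members was -0.28 against 0.12 for all transcripts tested, and 6 of the 8 were below 0 against 38.9% of all transcripts. It was -0.17 (all transcripts 0.29) without untreated replicate 1 and -0.18 (0.16) without OHT-treated replicate 2 of PRC1CKO. In bulk samples fewer cells that express a gene and less RNA per cell cannot be told apart.

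The same question was asked for loss of catalysis alone. After OHT treatment of PRC1CPM cells *Klf2* and *Nr0b1* were again called lower and no other member passed by any of these tools or at an unadjusted p under 0.05, while 1.4% (237) of all transcripts tested were called lower and 13.1% (2226) higher. With the replicate number as a block, 461 transcripts were called lower and 3033 higher, and *Klf2* and *Nr0b1* remained the members called. Leaving out untreated replicate 1 or 3, or OHT-treated replicate 2 or 3, of PRC1CPM gave between 123 and 152 transcripts called lower, and leaving out OHT-treated replicate 1 gave 1439 called higher. The median log2 difference of the members was -0.14 against 0.10 for all transcripts, and 6 of 8 were below 0 against 38.0% of all. Without OHT-treated replicate 2 of PRC1CPM the median of the members turned to 0.049 (all transcripts 0.25), and without untreated replicate 1 it was -0.054 (0.21).

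**Figure D2:**
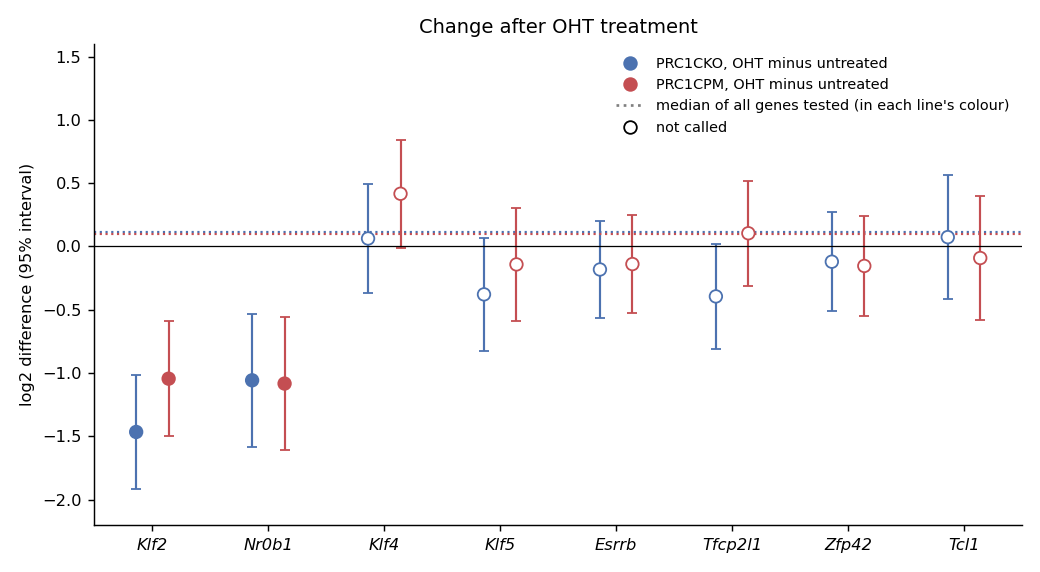
Log2 difference between OHT-treated and untreated cells for each member in the 2 lines, with the 95% interval from limma; filled points were called. *Klf2* and *Nr0b1* lie below -1 in both lines, and the intervals of the other 6 members include 0; the dotted lines are the medians of all transcripts tested, 0.12 and 0.10.

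Of the Krüppel-like factors, *Klf2* (NM_008452, chromosome 8 from 72319062 to 72321654, 3 exons) encodes a zinc finger activator that can support self-renewal when other KLFs are missing. In PRC1CKO cells its normalised read counts were 3171, 1824 and 2558 in the untreated replicates and 1012, 718 and 965 in the OHT-treated replicates. In PRC1CPM cells they were 2891, 2704 and 2569 before and 1586, 1028 and 1402 after treatment. All OHT-treated libraries of a line lay below all untreated libraries of that line, which 8.52% of all transcripts did in PRC1CKO and 3.7% in PRC1CPM cells. The log2 difference was -1.47 (standard error 0.23, adjusted p = 8.2e-07 from limma) in PRC1CKO cells, a 2.76-fold decrease. It was -1.04 (0.23, adjusted p = 0.00046 from limma) in PRC1CPM cells, a 2.06-fold decrease. Of all transcripts tested, 0.803% and 1.14% had a lower log2 difference in PRC1CKO and PRC1CPM cells.

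*Klf4* (NM_010637, chromosome 4 from 55527137 to 55532475, minus strand, 5 exons) encodes the related factor that responds to STAT3. Its normalised read counts were 7616, 5290.1 and 6399 in untreated and 6573, 6601 and 6775 in OHT-treated PRC1CKO replicates. In PRC1CPM cells they were 6305, 4804 and 5569 before and 8826, 4817 and 9438 after treatment. The groups overlapped in both lines, and OHT-treated replicate 2 of PRC1CPM was far below the other two, although each OHT-treated PRC1CPM replicate was above the untreated replicate of its number. The log2 difference was 0.06 (95% interval -0.36 to 0.49, adjusted p = 0.91 from limma) in PRC1CKO and 0.42 (-0.011 to 0.84, adjusted p = 0.24) in PRC1CPM cells. With the replicate block the adjusted p in PRC1CPM cells was 0.0072 from limma, at 1.33-fold and so without a call. Without OHT-treated replicate 2 of PRC1CPM it was 0.72 (adjusted p = 0.01 from limma) and *Klf4* was called higher, and on the spike-in scale without the correction from genomic DNA it was 0.71 (adjusted p = 0.032 from limma), also called, where the median of all transcripts was 0.39. The mean normalised read count over all transcripts of that replicate was 868, against 1264 and 1058 in the other two OHT-treated PRC1CPM libraries.

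*Klf5* (NM_009769, chromosome 14 from 99298691 to 99313409, 4 exons) encodes another factor of the group. Its normalised read counts were 3679, 2506 and 3032 in untreated and 2552, 1855 and 2688 in OHT-treated PRC1CKO replicates, and 2786, 2199.6 and 2637 before and 2678, 1604 and 2802 after treatment in PRC1CPM cells. The ranges overlapped, although each OHT-treated PRC1CKO replicate was below the untreated replicate of the same number. For *Klf5* the log2 difference was -0.38 (95% interval -0.82 to 0.067, adjusted p = 0.28 from limma) in PRC1CKO and -0.14 (-0.59 to 0.30, adjusted p = 0.83) in PRC1CPM cells. The 3 KLF members therefore had different values in the same libraries, from -1.47 for *Klf2* to 0.06 for *Klf4* in PRC1CKO cells.

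**Figure D3:**
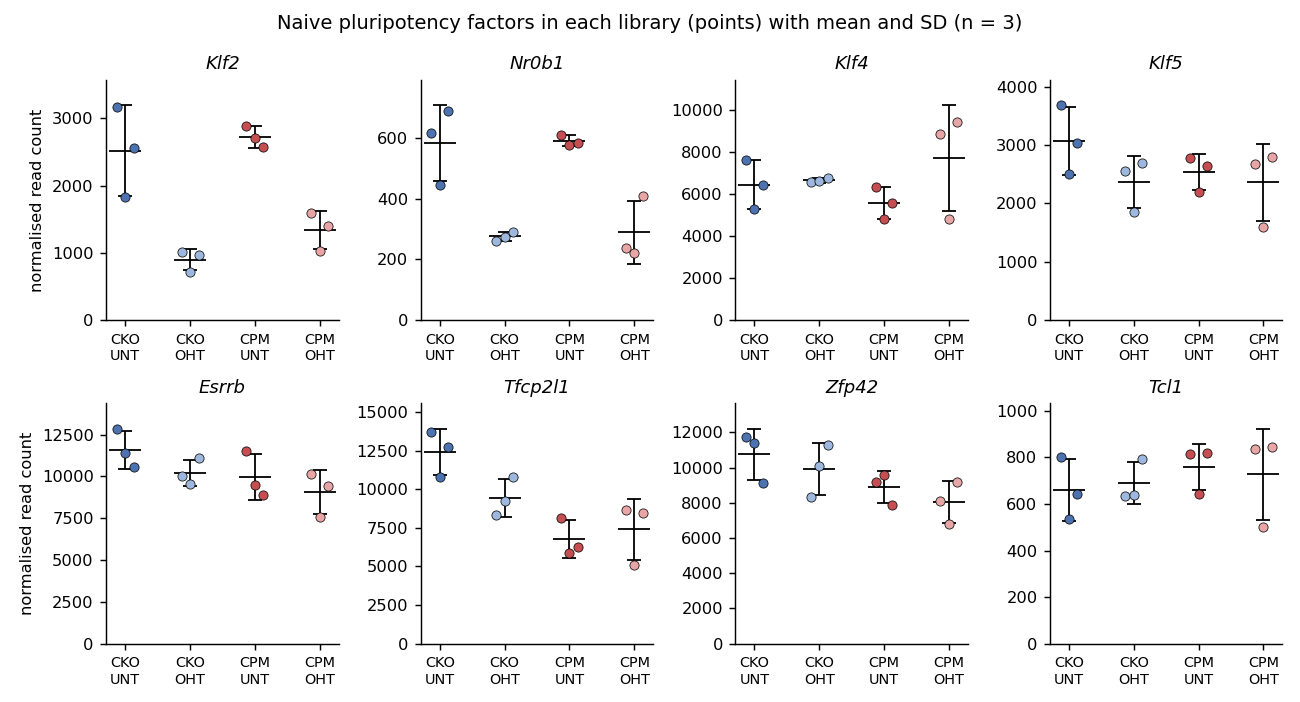
Normalised read count of each member in each of the 12 libraries (points, replicates 1 to 3 from left to right), with the mean and SD of each condition (n = 3); axes start at 0, and the scale differs between genes. The OHT-treated libraries of *Klf2* and *Nr0b1* lie below the untreated libraries of the same line without overlap, and *Tfcp2l1* is lower in the untreated PRC1CPM than in the untreated PRC1CKO libraries.

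Among the nuclear receptors, *Nr0b1* (NM_007430, chromosome X from 86191775 to 86195946, 2 exons) encodes DAX1, an atypical receptor without a DNA-binding domain that associates with OCT4. Its normalised read counts were 615, 446 and 688 in untreated and 261, 274 and 291 in OHT-treated PRC1CKO replicates. In PRC1CPM cells they were 611, 577 and 584 before and 238, 220.4 and 409.7 after treatment. All treated libraries lay below all untreated libraries of their line, and OHT-treated replicate 3 of PRC1CPM was higher than the other two. The log2 difference was -1.06 (standard error 0.26, adjusted p = 0.0017 from limma) in PRC1CKO and -1.08 (0.26, adjusted p = 0.0019) in PRC1CPM cells, decreases of 2.08-fold and 2.12-fold. *Nr0b1* was measured with 247 to 814 reads per library, which makes it the least deeply covered of the members. It kept its call in each alternative, with adjusted p from 1.3e-09 to 0.026 in PRC1CKO and from 7.2e-10 to 0.045 in PRC1CPM cells.

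*Esrrb* (NM_001159500, chromosome 12 from 86361117 to 86521628, 7 exons) encodes the orphan receptor that binds many of the enhancers active in naive cells. Its normalised read counts were 12827, 11396 and 10588 in untreated and 10009, 9558 and 11085 in OHT-treated PRC1CKO replicates, and 11499.7, 9481 and 8889.7 before and 10127, 7593 and 9441 after treatment in PRC1CPM cells. The groups overlapped in both lines. *Esrrb* had a log2 difference of -0.18 (95% interval -0.57 to 0.20, adjusted p = 0.63 from limma) and -0.14 (-0.52 to 0.25, adjusted p = 0.80) in PRC1CKO and PRC1CPM cells. *Gm40483* overlaps *Esrrb* on the other strand, and whether reads were counted by strand is not given in the sources used here.

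Of the other members, *Tfcp2l1* (NM_023755, chromosome 1 from 118627945 to 118685168, 15 exons) encodes a factor of the grainyhead-like family through which STAT3 sustains self-renewal. Its normalised read counts were 13689, 10787 and 12732 in untreated and 8338, 9204 and 10785 in OHT-treated PRC1CKO replicates. In PRC1CPM cells they were 8149.8, 5894 and 6253 before and 8663, 5106 and 8438 after treatment. The OHT-treated PRC1CKO libraries lay just below the untreated ones without overlap, as did those of *Klf2* and *Nr0b1* (3 of 8 members, against 8.52% of all transcripts), whereas the PRC1CPM groups overlapped. The log2 difference was -0.39 (95% interval -0.81 to 0.019, adjusted p = 0.21 from limma) in PRC1CKO and 0.10 (-0.31 to 0.52, adjusted p = 0.88) in PRC1CPM cells.

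*Zfp42* (NM_009556, chromosome 8 from 43295067 to 43307009, minus strand, 4 exons) encodes REX1, a zinc finger protein used as a reporter of the naive state. Its normalised read counts were 11754, 11375 and 9113 in untreated and 8336, 10114 and 11256 in OHT-treated PRC1CKO replicates, and 9182, 9600.2 and 7885 before and 8119.8, 6785 and 9163 after treatment in PRC1CPM cells. Groups overlapped in both lines, with log2 differences of -0.12 (95% interval -0.51 to 0.27, adjusted p = 0.78 from limma) in PRC1CKO and -0.15 (-0.55 to 0.24, adjusted p = 0.78) in PRC1CPM cells. *Tcl1* (NM_001289468, chromosome 12 from 105216755 to 105222737, minus strand, 3 exons) encodes a coactivator of the kinase AKT. It had 799.9, 536 and 644 normalised read counts in untreated and 635, 641 and 792 in OHT-treated PRC1CKO replicates, and 813, 643 and 820.1 before and 835, 503 and 843 after treatment in PRC1CPM cells. Its groups overlapped as well, with log2 differences of 0.07 (95% interval -0.42 to 0.56, adjusted p = 0.90 from limma) and -0.09 (-0.58 to 0.40, adjusted p = 0.92).

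Since the median log2 difference of all transcripts was above 0 in both lines, members' differences were also set against that median. Relative to it the difference of *Klf2* was -1.58 in PRC1CKO and -1.14 in PRC1CPM cells, and that of *Nr0b1* was -1.17 and -1.18. Relative values of the other members lay between -0.51 (*Tfcp2l1*) and -0.041 (*Tcl1*) in PRC1CKO cells. In PRC1CPM cells they lay between -0.25 (*Zfp42*) and 0.32 (*Klf4*). When the median of each library was subtracted instead, *Klf5* and *Esrrb* joined *Klf2*, *Nr0b1* and *Tfcp2l1* without overlap in PRC1CKO cells. In PRC1CPM cells *Esrrb* joined *Klf2* and *Nr0b1*. These were all lower after OHT treatment, and the remaining members overlapped. The share of all transcripts without overlap was not computed after this subtraction. With TMM in place of the spike-in, *Klf5* (-0.50, adjusted p = 0.0093 from limma), *Tfcp2l1* (-0.51, adjusted p = 0.0076) and *Esrrb* (-0.30, adjusted p = 0.037) in PRC1CKO cells had an adjusted p under 0.05 at folds below 1.5 and were not called. The signs of *Klf4* and *Tcl1* in PRC1CKO cells turned negative on that scale.

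The study asks whether catalysis accounts for what PRC1 does, which for the members is the difference between the changes of the 2 lines. No member passed the interaction test (limma, adjusted p under 0.05), and none had an unadjusted p under 0.05. DESeq2 and edgeR also called 0 members, and across all transcripts limma called 0.0236% (4) lower and 0% higher. The change of *Klf2* was smaller in PRC1CPM cells by 0.42 on the log2 scale (95% interval -0.22 to 1.06), and that of *Tfcp2l1* differed by 0.50 (-0.086 to 1.08). The interaction of *Nr0b1* was -0.026 (-0.77 to 0.72), an interval that takes in differences of that size in either direction. On the spike-in scale without the correction from genomic DNA the interaction was 0.87 for *Klf2*, 0.95 for *Tfcp2l1* and 0.42 for *Nr0b1*, whose sign turned, where the median of the members was 0.59 and that of all transcripts 0.43. No member was called on that scale either. Adjusted p-values in the main limma fit, on the corrected scale and without a block, were 1.00 for all members.

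When both lines had been treated with OHT, no member was called between PRC1CPM and PRC1CKO cells by limma, DESeq2 or edgeR. Of the 8 members 1 had an unadjusted p under 0.05 from limma, as had 1862 of the 16940 transcripts tested. Of all transcripts, 0.218% were called lower and 1.25% higher in PRC1CPM cells (1.37% and 6.68% with the replicate block). That member was *Klf2*, with 1339 ± 285 normalised read counts in OHT-treated PRC1CPM and 898 ± 158 in OHT-treated PRC1CKO cells (SD, n = 3). Its 3 PRC1CPM libraries were all above the 3 PRC1CKO libraries, as were those of 11.9% of all transcripts, and the log2 difference was 0.57 (95% interval 0.12 to 1.02, adjusted p = 0.26 from limma, and from 0.00051 to 0.87 over 22 alternatives, none of which gave a call). For *Nr0b1* the treated lines differed by 0.015 (-0.51 to 0.54). Among markers of other cells, *Gata6* (-1.78) and *Pdgfra* (-1.04), of primitive endoderm, were called lower in treated PRC1CPM cells. *Col1a1* (1.44), of fibroblasts, was called higher. The part of these cells in the value of *Klf2* was not tested.

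The untreated lines were then compared, to see whether the members started from the same level. *Tfcp2l1* was the single member called, with 6766 ± 1212 normalised read counts in PRC1CPM and 12403 ± 1479 in PRC1CKO cells (SD, n = 3), while 0.478% of all transcripts were called lower and 2.21% higher in PRC1CPM (1.49% and 9.63% with the replicate block). No untreated PRC1CPM library reached the lowest PRC1CKO library, which held for 2.55% of all transcripts in this direction. Its log2 difference was -0.88 (standard error 0.21, adjusted p = 0.008 from limma), and with no mean-variance trend the adjusted p was 0.089. After OHT treatment the difference was -0.38 (95% interval -0.80 to 0.031, adjusted p = 0.51 from limma) and the groups overlapped. Markers of other cells differed between the untreated lines as well: *Sox7* (-2.26), of primitive endoderm, and *Sox1* (-1.40), of neuroectoderm, were called lower and *Col1a2* (1.38), of fibroblasts, higher in PRC1CPM cells, and all 8 primitive endoderm genes were below 0. Their part in the value of *Tfcp2l1* was not tested. The other 7 members differed by between -0.27 (*Zfp42*) and 0.21 (*Tcl1*) in untreated cells, where the median of all transcripts was 0.12.

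*Tfcp2l1* lies on chromosome 1, whose transcripts had lower signal in PRC1CPM libraries as a group. Chromosomes 11 and 6, which hold none of the members analysed, were displaced the other way, with medians of 0.45 and 0.31 in untreated and 0.42 and 0.30 in OHT-treated cells against 0.12 and 0.097 for all transcripts. The median log2 difference of the 990 tested transcripts of chromosome 1 was -0.10 in untreated and -0.16 in OHT-treated cells, the lowest of the autosomes and X in both comparisons. In bins of 10 Mb along the chromosome the median was below that of all transcripts in each bin up to 150 Mb in both conditions. The 675 transcripts up to that point had a median of -0.25 in untreated and -0.30 in OHT-treated cells, and the 315 beyond it 0.22 and 0.15. Chromosome 1 took between 7.04% and 8.13% of reads in the 6 PRC1CKO libraries and between 6.29% and 6.64% in the 6 PRC1CPM libraries.

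The 5 tested neighbours of *Tfcp2l1* within 500 kb had a median log2 difference of -0.46 between the untreated and -0.39 between the OHT-treated lines, and none was called in either. Among them, in untreated cells, *Gli2* had -0.61 (adjusted p = 0.089 from limma), *Clasp1* -0.47, *Tsn* -0.46, *Nifk* -0.28 and *2900060B14Rik* 0.27. Against the transcripts of chromosome 1 up to 150 Mb, *Tfcp2l1* was lower by a log2 difference of -0.63 in untreated and -0.078 in OHT-treated cells, and 5.63% and 36.1% of those transcripts had lower values. The boundary of 150 Mb was placed after the bins had been seen, so it carries no test, and the part of the chromosome in the value of *Tfcp2l1* was not tested. The chromosomes of the other members analysed had medians between 0.087 and 0.103 in the same comparison of untreated lines.

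**Figure D4:**
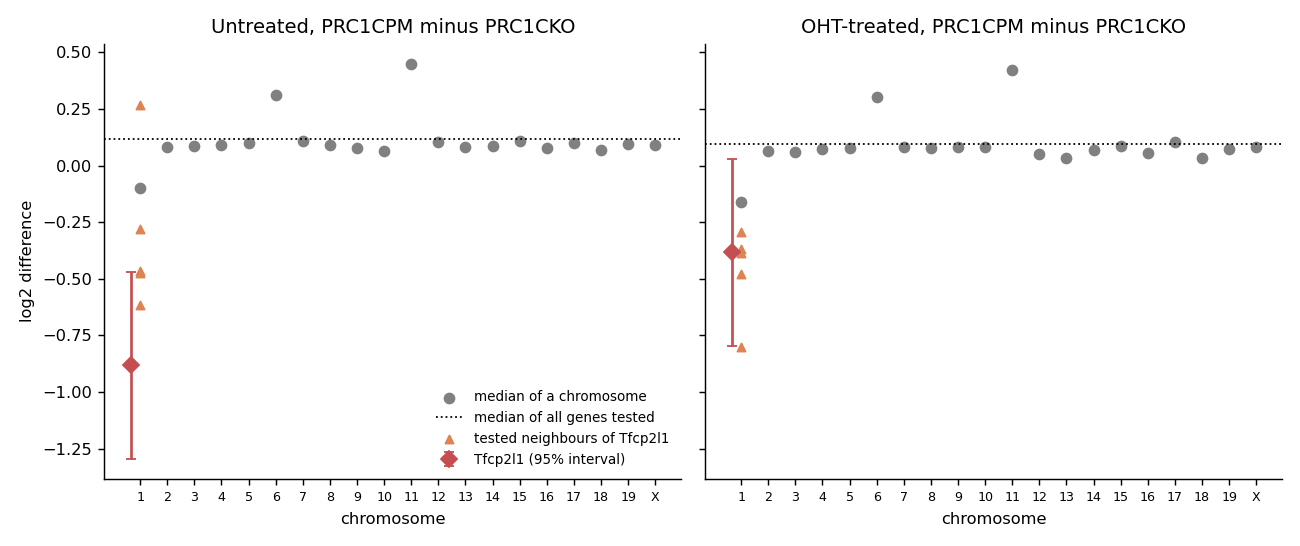
Log2 difference between PRC1CPM and PRC1CKO cells, untreated (left) and OHT-treated (right), for *Tfcp2l1* with its 95% interval, its 5 tested neighbours and the median of each chromosome. Chromosome 1 has the lowest median in both panels, -0.10 and -0.16, and *Tfcp2l1* lies below it, at -0.88 in untreated cells.

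The likeness of genes to each member was described by Pearson's r over the 12 libraries, after the median of each library was subtracted, among 12086 genes with a mean of at least 100 reads. The libraries share 2 lines and 2 treatments, so r carries no p. *Klf2* was most like *Zfp799* (r = 0.99), *Tmem55a* (0.985) and *LOC106740* (0.985), and *Nr0b1* most like *Suv39h2* (0.982), *Brcc3* (0.98) and *Nup160* (0.972). *Tfcp2l1* was most like *Usp37* (0.977), *Hibch* (0.972) and *Dyrk3* (0.97), *Esrrb* like *Papd4* (0.985) and *Ppp2r2d* (0.984), and *Zfp42* like *Skiv2l2* (0.967), *Ppip5k2* (0.963) and *Nop58* (0.96). *Klf5* was most like *Hdac1* (0.959), *Kmt2c* (0.953) and *Lcmt1* (0.953), *Klf4* like *Ivd* (0.921), *Slc15a1* (0.91) and *Slbp* (0.846), and *Tcl1* like *Nuf2* (0.919), *Npl* (0.916) and *Dis3* (0.906). Between members, r was highest for *Esrrb* and *Zfp42* (0.935) and for *Klf2* and *Nr0b1* (0.90), and lowest for *Klf2* and *Klf4* (-0.03).

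The rest of the KLF family was examined next. Of 17 family members tested, the 3 above included, 4 were called lower and 0 higher in PRC1CKO cells, and 2 lower and 0 higher in PRC1CPM cells. The shares of all transcripts called, for this and the other lists, were 3.09% lower and 16.5% higher in PRC1CKO, and 1.4% lower and 13.1% higher in PRC1CPM cells. Besides *Klf2*, *Klf15* was lower in both lines (-1.005, adjusted p = 0.0023, and -0.92, adjusted p = 0.0077, from limma). *Klf10* (-0.68, adjusted p = 0.02) and *Klf12* (-0.78, adjusted p = 0.0092) were called in PRC1CKO cells and had -0.26 and -0.35 in PRC1CPM cells. *Klf17* had the largest positive value in PRC1CKO cells, 0.70 (adjusted p = 0.33), and was not called. The median log2 difference of the family was -0.17 in PRC1CKO and 0.012 in PRC1CPM cells. No family member was called higher in either line by limma, DESeq2 or edgeR, and at an unadjusted p under 0.05 it was 0 in PRC1CKO and 1 in PRC1CPM cells. With the replicate block *Klf17* was called higher in PRC1CPM cells (1.00, adjusted p = 0.025 from limma). Without untreated replicate 1 or 3 or OHT-treated replicate 2 of PRC1CPM, 1 family member was called lower in that line. Without the correction from genomic DNA *Klf15* lost its call in PRC1CPM cells (-0.62, adjusted p = 0.11 from limma), and *Klf4* and *Klf17* were called higher. With no trend *Klf10* and *Klf12* lost their calls in PRC1CKO cells.

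Of the core pluripotency genes, 6 of 13 tested were called lower and 1 higher in PRC1CKO cells, and 2 lower and 1 higher in PRC1CPM cells, with medians of -0.56 and -0.40. All transcripts called lower were 3.09% and 1.4% of those tested, and those called higher 16.5% and 13.1%. *Fgf4*, the growth factor that starts exit from the naive state, had -1.06 (adjusted p = 0.00018 from limma) and -0.85 (adjusted p = 0.0038), and *Gdf3*, a ligand of the TGF-beta family, had -0.76 (adjusted p = 0.009) and -0.69 (adjusted p = 0.026). *Sox2* (-0.89), *Utf1* (-0.79) and *Zscan10* (-0.69) were called in PRC1CKO cells, and had -0.45, -0.41 and -0.48 in PRC1CPM cells without a call. *Dppa2* was called higher in both, by 0.80. No gene of this or the other lists passed the interaction test. In PRC1CPM cells 0 of these genes were called lower without OHT-treated replicate 2, and 1 without untreated replicate 1 or 3 or OHT-treated replicate 3 of that line. The call of *Dppa2* was lost without untreated replicate 3 or OHT-treated replicate 1 or 3 of PRC1CKO in that line, and without untreated replicate 2 or OHT-treated replicate 1 or 3 of PRC1CPM in the other. Without the correction from genomic DNA 0 of these genes were called lower and 2, *Dppa2* and *Nanog* (0.67), higher in PRC1CPM cells, and *Dppa2* lost its call in PRC1CKO cells. With no trend *Dppa2* lost its call in both lines and *Fgf4* in PRC1CPM cells. In PRC1CPM cells *Dppa2* also lost its call with no filter (adjusted p = 0.051 from limma). *Gdf3* lost its call there with the 6 libraries of the line alone (adjusted p = 0.055 from limma).

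Of 10 other naive-state genes tested, 5 were called lower and 1 higher in PRC1CKO cells, and 2 lower and 2 higher in PRC1CPM cells, with medians of -0.37 and 0.073. *Pecam1*, a cell adhesion gene, had -1.64 (adjusted p = 6.2e-08 from limma) and -1.59 (adjusted p = 2.9e-07), and *Tet2*, which oxidises methylated cytosine, had -1.08 (adjusted p = 0.0004) and -0.77 (adjusted p = 0.018). *Nr5a2* (-0.77), *Prdm14* (-0.76) and *Zfp281* (-0.71) were called lower in PRC1CKO cells and had -0.27, 0.15 and -0.35 in PRC1CPM cells. *Tbx3*, a repressor downstream of LIF, was called higher in PRC1CPM cells (0.97, adjusted p = 0.0003 from limma) and had 0.56 in PRC1CKO cells, under the fold threshold. *Dppa2*, also on this list, is the other gene called higher. Between the untreated lines *Tbx3* (-0.94, adjusted p = 0.0032 from limma) and *Nr5a2* (-0.84, adjusted p = 0.011) were called lower in PRC1CPM cells. The count called higher in PRC1CKO was 3 without untreated replicate 1, and 0 without untreated replicate 3 or OHT-treated replicate 3, of that line. Without OHT-treated replicate 1 of PRC1CKO 3 were called lower in that line, and without untreated replicate 1 or 3 or OHT-treated replicate 2 of PRC1CPM 1 was called lower in the other. The call of *Tet2* in PRC1CPM cells was lost with DESeq2, without the correction from genomic DNA, with no filter and with no trend.

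Upstream, the LIF pathway had 3 of 12 genes called lower and 1 higher in PRC1CKO cells, and 2 lower and 1 higher in PRC1CPM cells, with medians of -0.21 and 0.064. The 1 gene called higher of 12 stands beside 16.5% and 13.1% of all transcripts, and the 3 and 2 called lower beside 3.09% and 1.4%. Both chains of the LIF receptor were lower: *Lifr* had -1.09 (adjusted p = 4.1e-05 from limma) and -0.81 (adjusted p = 0.0032), and *Il6st*, which encodes gp130, had -0.86 (adjusted p = 0.00085) and -0.82 (adjusted p = 0.0021). The kinase gene *Jak1* was called higher, at 0.74 and 0.66 (adjusted p = 0.0092 and 0.03). Its call was lost without the correction from genomic DNA in PRC1CKO cells, and with TMM, with no trend and with the 6 libraries of the line alone in PRC1CPM cells. *Junb* was called lower in PRC1CKO cells (-0.98, adjusted p = 0.0019) and had -0.38 in PRC1CPM cells. With the replicate block 2 genes were called higher in PRC1CPM cells, *Jak1* and the related kinase gene *Jak2* (0.65, adjusted p = 0.00016 from limma). Leaving out single libraries gave from 0 to 3 genes called higher in PRC1CKO (3 without untreated replicate 1) and from 0 to 2 in PRC1CPM cells. Without the correction from genomic DNA, 0 genes of the pathway were called lower in PRC1CPM cells.

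In the branch of GSK3, beta-catenin and TCF3, 1 of 9 genes was called higher, against 16.5% of all transcripts in PRC1CKO and 13.1% in PRC1CPM cells. It was *Axin2*, a feedback target of beta-catenin, which rose by 1.22 in PRC1CKO (adjusted p = 0.00044 from limma) and 1.15 in PRC1CPM cells (adjusted p = 0.0014). *Tcf7l1*, which encodes TCF3, had the largest negative value, -0.39 (adjusted p = 0.24) in PRC1CKO and -0.40 (adjusted p = 0.27) in PRC1CPM cells. No gene of the branch was called lower by limma, DESeq2 or edgeR or had an unadjusted p under 0.05 in that direction. The medians of the branch were 0.19 and 0.13, and leaving out single libraries, among them untreated replicate 1 of PRC1CKO, gave 1 to 2 genes called higher in PRC1CKO cells.

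Of 13 genes of the formative and primed states, 2 were called higher and 2 lower in PRC1CKO cells, where 16.5% of all transcripts were called higher and 3.09% lower. In PRC1CPM cells 1 was called higher and 2 lower, where 13.1% and 1.4% of all transcripts were, and the medians of the list were -0.01 and 0.013. *Sox3* rose by 2.57 (adjusted p = 3.1e-07 from limma) and 2.01 (adjusted p = 6.6e-05), and *Dnmt3b*, a DNA methyltransferase gene, was called higher in PRC1CKO cells (0.68, adjusted p = 0.03) and had 0.013 in PRC1CPM cells. *Otx2*, a factor of the formative enhancers, had -1.01 (adjusted p = 0.0033) and -1.20 (adjusted p = 0.00059), and *Zic5* had -1.63 (adjusted p = 3.9e-06) and -1.43 (adjusted p = 7.8e-05). Leaving out single libraries gave from 1 to 4 genes of this list called higher in PRC1CKO cells, 4 of them without untreated replicate 1 of PRC1CKO. Without OHT-treated replicate 2 of PRC1CKO 1 gene of this list was called lower in that line. The call of *Dnmt3b* was lost with DESeq2, TMM, no filter and no trend, and without the correction from genomic DNA. *Zic2* (-0.63, adjusted p = 0.065 from limma, in PRC1CPM cells) was called lower in that line with DESeq2, TMM, no trend and the replicate block. With TMM it was called lower in PRC1CKO cells too. Of 11 genes needed for exit from the naive state, *Fnip1* (-0.62) and *Zfp281* (-0.71) were called lower in PRC1CKO cells. *Zfp281* is also on the list of other naive-state genes, so the same call is counted in both. In PRC1CPM cells *Fnip1* and *Zfp281* had -0.45 and -0.35. There limma, DESeq2 and edgeR called 0 of the 11 lower, and 1 had an unadjusted p under 0.05. Without OHT-treated replicate 1 of PRC1CKO 0 were called lower in that line, and 1 without its untreated replicate 1 or OHT-treated replicate 2. With TMM, and without the correction from genomic DNA, 4 were called lower in PRC1CKO cells, with *Etv5* and *Mapk3* added. With no trend *Fnip1* lost its call there (adjusted p = 0.0997 from limma). *Jarid2*, a subunit of PRC2, was called higher in both lines (0.72 and 0.66), and the medians of the list were -0.37 and -0.31. The call of *Jarid2* was lost without untreated replicate 3 or OHT-treated replicate 1 of a line in that line, with no trend in both lines, without the correction from genomic DNA in PRC1CKO, and with TMM or no filter in PRC1CPM cells. Genes of the 2-cell-like state were not analysed here.

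**Figure D5:**
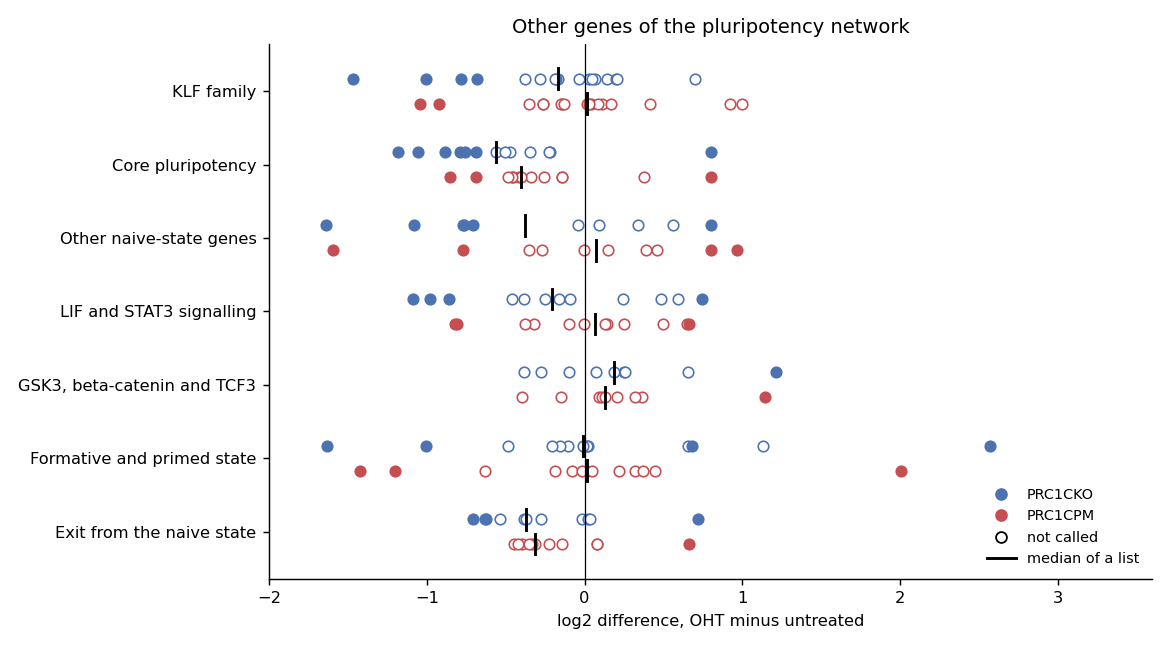
Log2 difference between OHT-treated and untreated cells for each tested gene of 7 lists around the members (1 point per gene and line, filled where called), with the median of each list as a black bar. Core pluripotency genes lie mostly left of 0 in both lines, with medians of -0.56 and -0.40, and the genes of the formative and primed state spread from -1.63 to 2.57 in PRC1CKO cells.

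Markers of other cells that an ESC culture could hold were also examined, and some of them were called higher or lower after OHT treatment. Of 8 primitive endoderm genes, 5 were called higher in PRC1CKO and 7 in PRC1CPM cells (16.5% and 13.1% of all transcripts) and none lower by limma, DESeq2 or edgeR or at an unadjusted p under 0.05, among them *Gata6*, which rose by 2.96 and 2.26. Their summed signal lay between 4707 and 9244 normalised read counts in untreated and between 6909 and 9397 in OHT-treated PRC1CKO libraries, and between 4788 and 6310 and between 4628 and 7750.1 in PRC1CPM libraries, so the sums overlapped. *Lama1*, their most abundant gene, had 5252 ± 1900.4 in untreated and 4198 ± 710.1 in OHT-treated PRC1CKO cells (SD, n = 3) and was not called. None of the primitive endoderm genes was at 0 in a condition.

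Of 5 trophoblast genes tested, 3 were called higher and 1 lower in PRC1CKO cells, and 4 higher in PRC1CPM cells, where edgeR called 3 and DESeq2, or limma with no trend, 2. *Gata3* rose by 3.26 and 2.02, and *Tfap2c*, the most abundant of them and the gene called lower (-0.66), had 1434 ± 175 normalised read counts in untreated and 907 ± 57 in OHT-treated PRC1CKO cells. Its call was lost without untreated replicate 2 or any 1 of the OHT-treated replicates of PRC1CKO. Their sums lay between 1377 and 1756 in untreated and between 1418 and 1821 in OHT-treated PRC1CKO libraries, and between 1044 and 1178 and between 1400.2 and 2159 in PRC1CPM libraries, with overlap in PRC1CKO alone. Of 5 mesoderm genes tested, 3 were called higher in each line by limma and edgeR and 2 by DESeq2. *Kdr*, the most abundant in the other 3 conditions but not in untreated PRC1CKO cells, rose by 2.19 and 1.69, and *Msgn1* was at 0 in OHT-treated PRC1CKO and in untreated PRC1CPM cells. Mesoderm sums were between 198 and 459 in untreated and between 648 and 897 in OHT-treated PRC1CKO libraries, and between 245 and 432 and between 479 and 948 in PRC1CPM libraries, without overlap in either line.

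Of 6 neuroectoderm genes, 4 were called higher and 1 lower in PRC1CKO cells, and 2 higher in PRC1CPM cells, where leaving out single libraries gave 1 to 2. The gene called lower, *Tubb3* (-0.71), lost its call without replicate 1 or 3 of untreated or any 1 replicate of OHT-treated PRC1CKO cells, and without untreated replicate 3 of PRC1CPM. *Pax6* rose by 3.06 and 1.28, and the most abundant, *Nes*, had 682 ± 397 normalised read counts in untreated and 1505 ± 158 in OHT-treated PRC1CKO cells. Sums lay between 1069 and 2103 in untreated and between 2088 and 2421 in OHT-treated PRC1CKO libraries, and between 1469 and 1739 and between 1601 and 2714 in PRC1CPM libraries. Of 6 fibroblast genes tested, 1 was called higher (*Thy1*, 0.65) and 1 lower (*Postn*, -2.13) in PRC1CKO cells, where 16.5% of all transcripts were called higher and 3.09% lower. The call of *Thy1* was lost without any 1 of the PRC1CKO libraries other than untreated replicate 1, and without replicate 3 of either PRC1CPM condition, and that of *Postn* without untreated replicate 1 or OHT-treated replicate 3. In PRC1CPM cells limma and DESeq2 called 0 and edgeR 1, and 1 had an unadjusted p under 0.05. With the replicate block *Col1a2* was called lower (-0.81) and *Pdgfrb* higher (0.62) there. The sums ran from 2285 to 6386 and from 3727 to 4639 in PRC1CKO libraries and from 4024 to 15438 and from 5031 to 16063 in PRC1CPM libraries. *Col1a1*, their most abundant gene, varied widely among the untreated PRC1CPM libraries (5129 ± 4687), and *Lum* was at 0 in untreated PRC1CKO and OHT-treated PRC1CPM cells. The part of other cells in the values of *Klf2* and *Nr0b1* was not tested.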

How the data were processed

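The data are 12 cRNA-seq libraries of mouse PRC1CKO and PRC1CPM ESCs, with the line, OHT treatment and replicate number of each taken from the labels. The matched genomic DNA libraries have no expression values and were not used as samples. The authors discarded rDNA reads, aligned the others to mm10 and dm6 with STAR and Bowtie 2, kept unique reads, removed PCR duplicates and counted reads over gene bodies. The authors deposited a normalised signal per transcript and library, the read count divided by a spike-in size factor corrected by genomic DNA sequencing. The deposited table also holds the authors' log2 fold changes and adjusted p-values and a second table lists partially derepressed genes, and none of these were used.

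Dividing by the value of 1 read gave whole reads (within 0.02) for 100% of the values. Of all transcripts, 16940 passed a minimum of 10 reads in 3 or more libraries and entered the test. Values of log2(normalised read count + 1) were fitted in limma 3.58.1 (R 4.3.3) as 4 condition means, without a block and with its mean-variance trend, and p-values were adjusted by Benjamini-Hochberg across all 16940. The pseudocount of 1 understates changes of low genes. A call needed more than a 1.5-fold change and an adjusted p below 0.05, or the latter alone for the interaction. The fit was tested on simulated data. The alternatives were edgeR 4.0.16 and DESeq2 1.42.0 on the recovered reads (2702 and 2757 transcripts higher and 549 and 560 lower in PRC1CKO, 2253 and 2312 higher and 245 and 267 lower in PRC1CPM), TMM, the spike-in without the correction from genomic DNA (undone with the study's read totals), no filter, a pseudocount of 0.1, no trend, other thresholds, the 6 libraries of a line, the replicate number as a block, and 12 fits that omit a library each. Same-numbered untreated and OHT-treated PRC1CPM libraries deviated together from their condition means (r from 0.246 to 0.438 in 3 pairs), so blocked counts of that line are given where they change calls of named genes or a count by over 1.5 times.

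The members and gene lists were chosen with earlier results of these data known. All members are named, and from the other lists each gene called in either line with the largest rise and fall in PRC1CKO; single markers of other cells were chosen after their values were seen. Some genes that this rule or the measure of likeness selects are not reported here. Values along chromosome 1 were added after the values were seen. Positions are on GRCm38, from the table with 1 added to its start, exons and promoters from RefSeq. Counting error limits the precision of genes with few reads. Summaries used pandas 2.3.3, numpy 2.4.6 and scipy 1.17.1 under Python 3.11.15, and plots matplotlib 3.10.9.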

Additional observations from a re-analysis of the deposited data

How the results depend on the processing

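*Klf2* and *Nr0b1* were called lower in both lines under each of 23 alternatives, with log2 differences of *Klf2* from -1.68 to -1.28 in PRC1CKO and -1.18 to -0.75 in PRC1CPM cells, and of *Nr0b1* from -1.24 to -0.93 and -1.36 to -0.79. In PRC1CPM cells 1 member (*Klf4*) was called higher in place of 0 on the spike-in scale without the correction from genomic DNA, and leaving out single libraries gave 0 to 1. Between the untreated lines 0 members were called lower in place of 1 with no mean-variance trend and with a fold change above 2 (*Tfcp2l1*, -0.88). No other count of members called changed. The median of the members moved to 0.16 in PRC1CPM cells without that correction, where the median of all transcripts was 0.39 and the values of *Klf5*, *Esrrb*, *Zfp42* and *Tcl1* turned positive. The cause was not tested. Untreated and OHT-treated PRC1CKO libraries of the same number had r from 0.0988 to 0.179. Over both lines 17 of 18 same-number pairs had r above 0.1 (mean 0.205). Different-number pairs had a mean of -0.102 and at most 0.0275, below each same-number pair. The main fit has no block, so it leaves what libraries of the same number share within its spread, in PRC1CKO as in PRC1CPM. With the replicate block no call of a member changed, although *Klf5* and *Tfcp2l1* in PRC1CKO had adjusted p of 0.013 and 0.011 from limma at folds below 1.5, and 823 transcripts were called lower in PRC1CKO, 246 and 78 lower and higher in the interaction, 232 and 1131 between the treated lines and 253 and 1631 between the untreated lines. The replicate block also added *Lif*, *Lef1*, *Fgf5*, *Sox7*, *Cdx2* and *Mixl1* to the listed genes called higher and *Mapk3* and *Col3a1* to those called lower in PRC1CKO, and *Zic2* to those called lower in PRC1CPM. TMM called 1133 and 595 transcripts lower in PRC1CKO and PRC1CPM, 14 lower in the interaction, 261 lower and 524 higher between the treated and 305 lower and 745 higher between the untreated lines. The scale without the correction called 68 lower and 3428 higher in PRC1CPM, 1 and 2 in the interaction, 21 and 441 between the treated and 148 and 130 between the untreated lines. DESeq2 called 15 lower in the interaction and 85 lower and 344 higher between the treated lines, where edgeR called 59 lower. With no filter there were 0 lower in the interaction, 21 lower and 136 higher between the treated lines and 243 higher between the untreated lines. A pseudocount of 0.1 gave 1 lower in the interaction and 24 between the treated lines, and no trend gave 0 in the interaction. A fold change above 2 called 271, 125 and 43 lower in PRC1CKO, PRC1CPM and between the untreated lines. Leaving out single libraries called 1 to 28 transcripts lower and 0 to 1 higher in the interaction, 17 to 78 lower and 81 to 399 higher between the treated lines, and 170 to 1492 higher between the untreated lines (1492 without untreated PRC1CKO replicate 1), with 46 lower there without untreated PRC1CPM replicate 3. *Nr0b1* and *Tcl1* rest on the fewest reads of the members.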
